A study of Homo sapiens with 2 samples.

Results

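Activin and TGF-beta signal through a type II receptor that phosphorylates a type I receptor, which in turn phosphorylates SMAD2 or SMAD3. These join SMAD4 and enter the nucleus, where SKIL is a co-repressor of the complex. Activin and Nodal signalling through SMAD2 and SMAD3 is known to maintain human embryonic stem cells in the primed pluripotent state. The chromatin around 10 genes of this pathway was examined here: the type I receptor genes ACVR1B and TGFBR1, the type II receptor genes ACVR2A, ACVR2B and TGFBR2, the ligand gene TGFB1, the signal transducer genes SMAD2, SMAD3 and SMAD4, and SKIL.

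The study mapped open chromatin of H1, an established human embryonic stem cell line, with ATAC-seq, an assay whose transposase cuts accessible DNA and attaches adapters to it. The cells were thawed from frozen stocks, cleared of free DNA with DNase I and purified on Ficoll. The labels give 1 group of 2 samples, do not say whether these came from separate cultures, and name 1 peak list for both. A region was chosen by position: its strongest summit lay in the GENCODE gene body of 1 of the 10 genes or within 100 kb of it. This held for 204 of the 160327 regions in the list, and no region was counted at more than 1 of the genes. The fold of a summit over background is the authors' own value. Neither a spread between samples nor a test over samples could be had, so all comparisons below are descriptions within 1 list, and exact binomial (Clopper-Pearson) intervals cover counting error only.

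Over all protein-coding genes, 75.7% had a region at the start of the canonical transcript. Of 12 pluripotency markers, 11 had one, POU5F1 being the exception, and all 12 had one at the outermost 5′ end. Of 7 fibroblast markers 5 had one at the canonical start, COL1A1 and COL3A1 being without, and 4 had one at the outermost 5′ end. Of 3 muscle markers 1 had one at the canonical start, and of 5 blood markers 0, with the same counts at the outermost 5′ end. At the canonical start the fibroblast count was thus close to the share of all genes. The part of other cell types in the results below was not tested.

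Windows of 101 bp around the summits that the results below turn on are printed from the hg38 sequence, 5′ to 3′ on the strand of the gene (minus for SMAD2, plus for the others), with capitals for matches to any of the 16 motifs searched (listed with the motif results). The first set holds the strongest promoter summits of 4 members, which differ in the motifs they hold: NFY and GC boxes at TGFBR2, GC boxes at ACVR2A, NFY boxes at SMAD2, and SMAD motifs with GC boxes at SKIL.

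TGFBR2 promoter (chr3:30606439-30606539): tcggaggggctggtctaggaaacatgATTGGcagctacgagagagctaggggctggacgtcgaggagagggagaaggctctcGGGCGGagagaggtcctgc
ACVR2A promoter (chr2:147844221-147844321): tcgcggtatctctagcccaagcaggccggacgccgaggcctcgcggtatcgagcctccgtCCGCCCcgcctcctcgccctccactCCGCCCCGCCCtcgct
SMAD2 promoter (chr18:47931157-47931257): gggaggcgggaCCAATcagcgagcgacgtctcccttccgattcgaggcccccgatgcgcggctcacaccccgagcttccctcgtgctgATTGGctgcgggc
SKIL promoter (chr3:170357206-170357306): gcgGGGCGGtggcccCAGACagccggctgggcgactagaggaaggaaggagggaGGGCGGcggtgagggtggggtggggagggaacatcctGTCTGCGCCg

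The second set holds summits away from promoters, first the strongest at SKIL, SMAD4, TGFBR2, SMAD2, ACVR2A and TGFBR1. Then come the window at SMAD3 with both CAGAC, the SMAD core, and a FOXH1 match, and an ACVR1B window with a CTCF match. An ACVR2B window with a FOXH1 match and a TGFBR1 window with the octamer close the set.

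SKIL upstream (chr3:170310279-170310379): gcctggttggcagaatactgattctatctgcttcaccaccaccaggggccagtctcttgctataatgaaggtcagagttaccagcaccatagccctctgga
SMAD4 downstream (chr18:51110448-51110548): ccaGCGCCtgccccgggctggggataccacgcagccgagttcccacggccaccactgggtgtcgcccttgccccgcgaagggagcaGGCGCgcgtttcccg
TGFBR2 intron (chr3:30667325-30667425): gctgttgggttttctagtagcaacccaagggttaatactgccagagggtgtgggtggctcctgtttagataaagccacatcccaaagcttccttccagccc
SMAD2 upstream (chr18:47968132-47968232): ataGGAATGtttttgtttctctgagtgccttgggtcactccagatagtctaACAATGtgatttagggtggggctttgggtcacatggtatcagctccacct
ACVR2A intron (chr2:147860108-147860208): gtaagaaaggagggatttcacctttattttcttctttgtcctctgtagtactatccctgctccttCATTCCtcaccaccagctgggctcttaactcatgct
TGFBR1 intron (chr9:99140842-99140942): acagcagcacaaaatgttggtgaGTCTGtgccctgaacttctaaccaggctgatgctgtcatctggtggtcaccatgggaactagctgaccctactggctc
SMAD3 upstream (chr15:67044489-67044589): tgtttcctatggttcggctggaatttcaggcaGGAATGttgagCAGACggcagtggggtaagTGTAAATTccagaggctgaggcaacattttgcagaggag
ACVR1B intron (chr12:51993232-51993332): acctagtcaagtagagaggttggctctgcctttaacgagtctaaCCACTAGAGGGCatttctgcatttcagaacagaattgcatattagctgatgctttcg
ACVR2B upstream (chr3:38422116-38422216): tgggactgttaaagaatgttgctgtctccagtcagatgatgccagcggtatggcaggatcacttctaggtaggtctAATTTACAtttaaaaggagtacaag
TGFBR1 downstream (chr9:99169244-99169344): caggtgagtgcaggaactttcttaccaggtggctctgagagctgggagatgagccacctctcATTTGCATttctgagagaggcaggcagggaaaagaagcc

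All 10 genes had an accessible region within 1000 bp of the outermost annotated 5′ end, a share of 100% (interval 69.2% to 100%), against 71.5% of all 20007 protein-coding genes. All 10 also had one at the canonical start, against 75.7% of all genes. The members' canonical starts were rich in CpG, with ratios of observed to expected CpG of 0.665 to 0.986. Of the 11443 protein-coding genes within that range, 96.3% had a region, so a region at the start was the rule for genes of like CpG content. The fold ran from 3.77 to 11.6. At the outermost 5′ end the median over the 10 members was 7.79 (interval of the median 4.00 to 11.3). Over all protein-coding genes with a region there it was 9.49 (quartiles 6.57 and 12.5), a value inside that interval. At the canonical start the medians were 8.67 for the members and 9.54 for all protein-coding genes with a region.

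Among the receptors, TGFBR2 and ACVR2A had the highest promoter folds. TGFBR2, the type II receptor for TGF-beta, had a fold of 11.6 in a region of 1611 bp with 5 summits on chromosome 3 (30606126 to 30607736), its strongest summit 112 bp upstream of the start. ACVR2A, a type II receptor for activin, had 11.3 on chromosome 2 (147843789 to 147844890). That region ended upstream of the canonical start, and a second one downstream of the start had 2.02, the lowest fold of all 204 regions. TGFBR1, the type I receptor for TGF-beta, had 10.3 on chromosome 9 (99104273 to 99106032), and ACVR1B, the type I receptor for activin and Nodal, had 9.43 on chromosome 12 (51951070 to 51952909). ACVR2B had 7.68 in a region on chromosome 3 (38453085 to 38454059) that also lay in the antisense gene ACVR2B-AS1. These 5 receptor promoters thus spanned 7.68 to 11.6, and the 3 with the highest folds lay above the median of all open promoters.

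TGFB1, which encodes a ligand that TGFBR2 binds, had the lowest of the 10 genes, 3.77 at a summit 221 bp upstream of the start on chromosome 19 (41354034 to 41354486), with a separate region of fold 2.89 over the start. Of the promoters of all protein-coding genes with a region, 6.27% ranked below it. SMAD3 had 4.00 at its outermost 5′ end and 4.99 in a separate region over the canonical start on chromosome 15 (67064790 to 67066058), and 8.43 at another annotated start inside the gene. SMAD2 had 7.91 in a region of 1727 bp with 5 summits on chromosome 18 (47930029 to 47931755).

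The fold differed most between the starts at SMAD4, the partner shared by SMAD2 and SMAD3. Its outermost 5′ end had a fold of 4.09, and the canonical start, 1685 bp further downstream, had 10.7 in a region of 1479 bp on chromosome 18 (51029528 to 51031006). SKIL, whose protein binds SMADs and represses their targets, had a fold of 7.36 in a region of 2199 bp on chromosome 3 (170356392 to 170358590). That region was the widest of the 204, wider than 99.9% of all regions in the list, and held 6 summits from 1219 bp upstream to 677 bp downstream of the canonical start. Of the 15 regions at the members' own starts, 12 held more than 1 summit and 9 covered the canonical start. In the whole list, 64.6% of the regions at an outermost 5′ end held more than 1 summit. The share that covered a canonical start was not determined for the list. The median fold of the 15 was 7.36, against 9.43 for the 19 regions at other genes' 5′ ends in the same loci. The 15 include weaker second regions of a gene, such as 2.02 at ACVR2A, 2.71 at SMAD2 and 2.89 at TGFB1. The 19 include a region of fold 32.8 at a mitochondrial pseudogene, described below. With only the strongest region at each canonical start, the median of the members was 8.67.

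**Figure D1:**
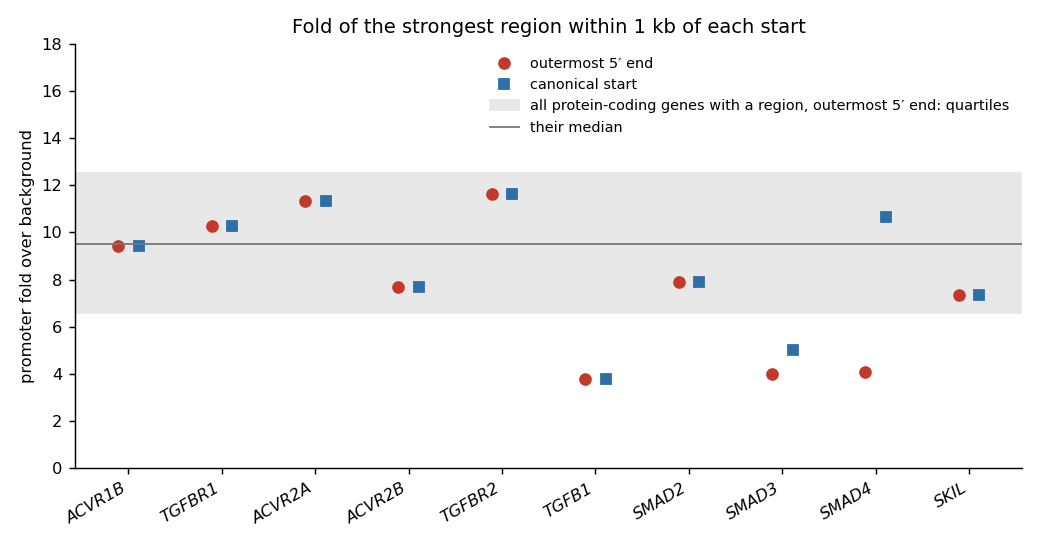
Fold over background (vertical axis, authors' value) of the strongest region within 1000 bp of the outermost 5′ end (red circles) and of the canonical start (blue squares) of each of the 10 genes. The grey band and line give the quartiles (6.57 and 12.5) and the median (9.49) of all protein-coding genes with a region at the outermost 5′ end; TGFB1 and SMAD3 lie below the band at both starts, and SMAD4 lies below it at the outermost 5′ end and inside it at the canonical start.

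Most of the 204 regions lay away from gene starts. Outside the promoters of any gene were 170 regions, or 83.3% (interval 77.5% to 88.2%), against 86.9% of the whole list. Of these 170 regions 54.1% had their summit in an intron and 33.5% lay between genes. The 204 regions had a median fold of 5.42 (interval of the median 4.72 to 6.18) and a median width of 493 bp, against 5.38 and 447 bp in the whole list. More than 1 summit was found in 37.3% of them (30.6% to 44.3%), against 30.7% of the list. A fold of 11.9 or more, the 90th percentile of the list, was found in 14 of the 204 regions, or 6.86% (3.80% to 11.2%), against 10.0% of the list. The member was the nearest protein-coding canonical start for 98 of the 204 regions, or 48.0% (41.0% to 55.1%).

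Each of the 10 loci held 14 to 31 regions. The share of all protein-coding genes whose own start holds the strongest region of their locus was not determined. In none of the 10 loci was the strongest region at the member's own start. At 6 loci it lay at the promoter of a coding neighbour: ATG101 near ACVR1B (fold 14.2), ALG2 and SEC61B near TGFBR1 (14.6), ORC4 and MBD5 near ACVR2A (13.6), EXOG near ACVR2B (11.8), EXOSC5 and BCKDHA near TGFB1 (12.4), and AAGAB and IQCH near SMAD3 (15.1). At SKIL, SMAD4 and TGFBR2 it lay outside any promoter. At SMAD2 it lay in intron 6, at the mitochondrial pseudogene MTCO2P2 (chromosome 18, 47853199 to 47853445), with a fold of 32.8. Of that region 192 bp aligned to mitochondrial DNA at 97.4% identity, and none of the other 203 regions aligned. The part of mitochondrial reads in its fold was not tested. Without it the strongest region at SMAD2 had 14.0.

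**Figure D2:**
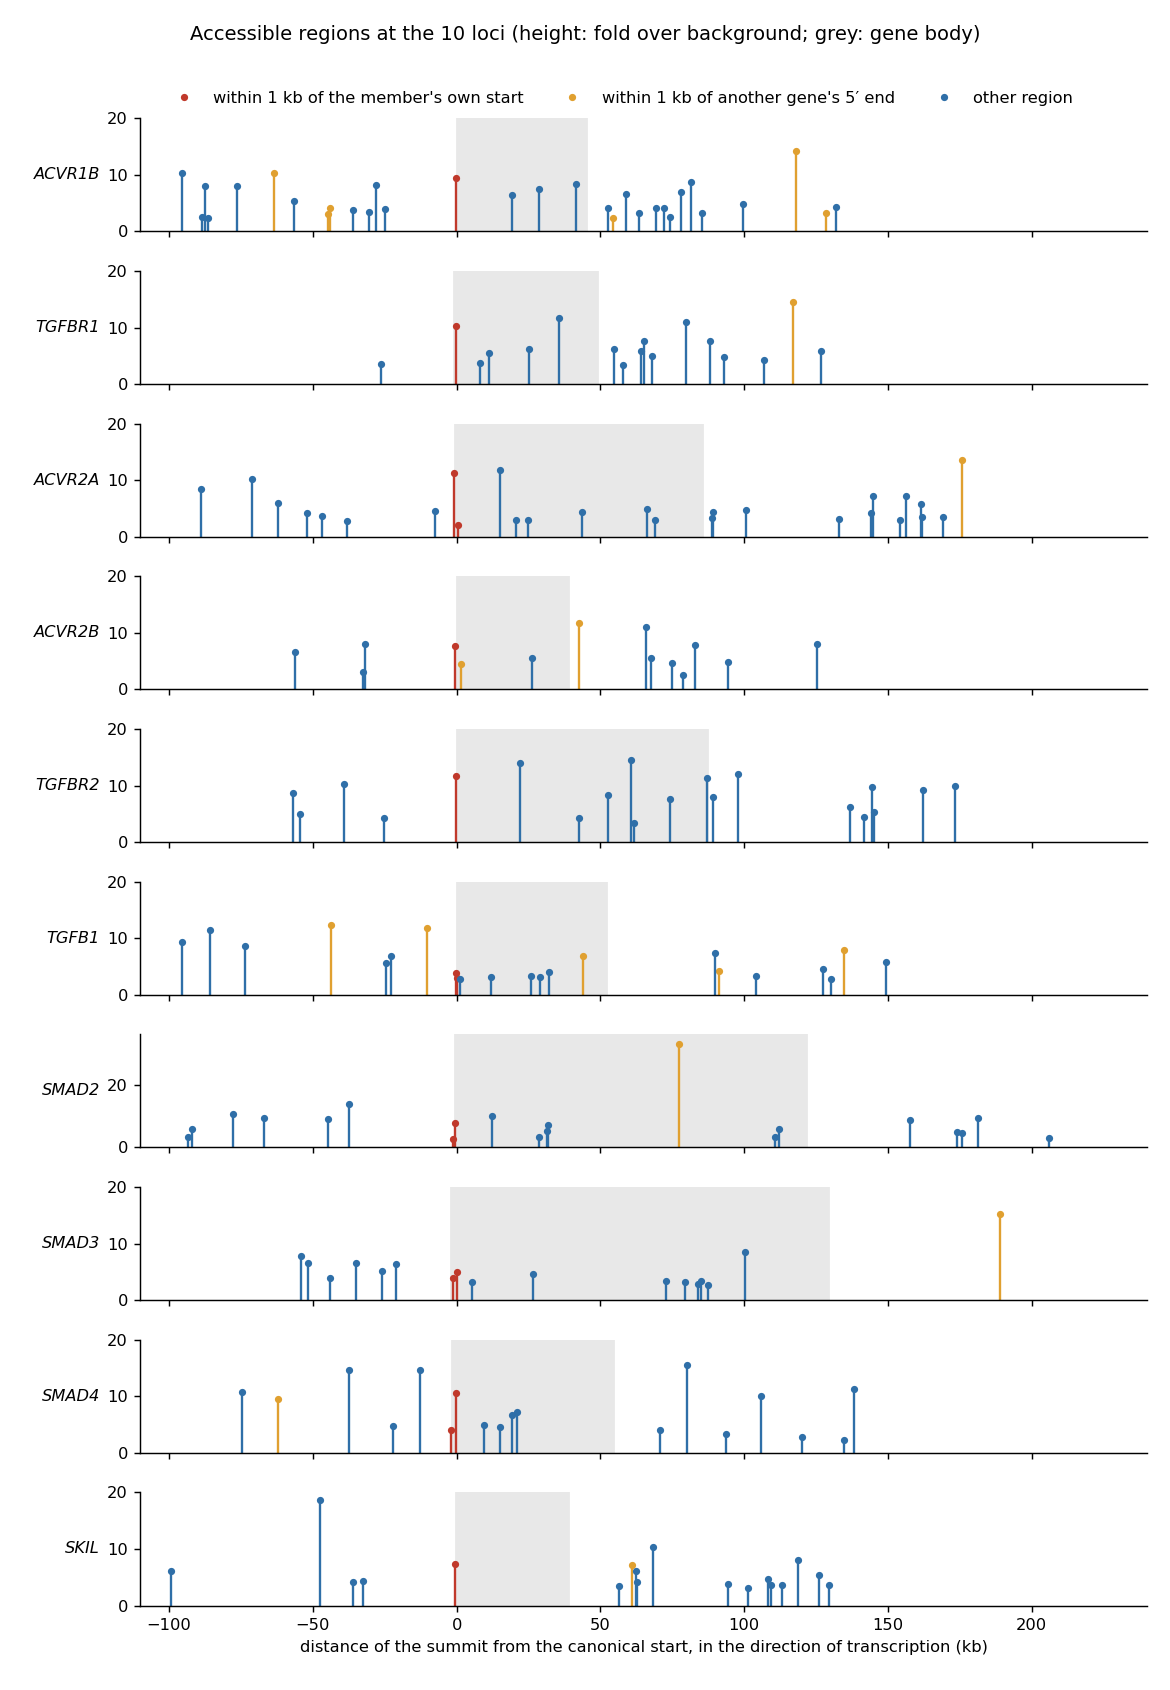
Each of the 204 regions as a line at the distance of its strongest summit from the member's canonical start (horizontal axis, kb, in the direction of transcription), with its fold over background as the height; the SMAD2 axis runs higher than the others. Red marks the member's own start, orange another gene's 5′ end and blue all other regions, and the grey block is the gene body; SKIL holds no strongest summit in its body, and SMAD3 holds 10.

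Outside promoters, TGFBR2 had the highest median fold of the 10 loci. Its 19 such regions ran from 3.31 to 14.6 with a median of 8.27. Of the 19, 14 (73.7%, interval 48.8% to 90.9%) lay above 5.20, the median of all such regions in the list. That interval includes an even split. The highest, in intron 3 at 30666485 to 30667595 of chromosome 3, had 14.6, and another in intron 1 at 30628160 to 30629157 had 14.0. A region 97860 bp downstream of the start, beyond the gene's 3′ end, had 12.1. A summit in the last exon had 11.4. The window held no other protein-coding start, and TGFBR2 was the nearest coding start for 16 of its 20 regions.

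The other type II receptor loci had lower medians. ACVR2A had 24 regions outside promoters with a median fold of 4.32. Of these, 7 (29.2%, interval 12.6% to 51.1%) lay above 5.20, and this interval too includes an even split. The highest was 11.8 in intron 1 (147859801 to 147860460 on chromosome 2). Upstream, 71344 bp and 88793 bp from the start, regions had folds of 10.2 and 8.38. ACVR2B had 11 such regions, the fewest, with a median of 5.60. The strongest of them, 11.0, lay in an intron of EXOG. The next was the region of the FOXH1 window printed above, 31724 bp upstream (8.09).

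The type I receptor loci differed in number. ACVR1B had 31 regions in all, the most of the 10 loci, and TGFBR1 had 17. In the ACVR1B window lay the starts of 7 coding genes, its own included, among them ACVRL1, which encodes another type I receptor of the TGF-beta family, and ACVR1B was the nearest coding start for 2 of the 31 regions. Inside ACVR1B itself lay 3 regions, with folds of 6.39, 7.46 and 8.34, and the last 2 held a CTCF match. The strongest outside promoters lay 95666 bp upstream (10.3) and in an intron of NR4A1 (8.77). TGFBR1 had 1 region in the 100 kb upstream and 11 downstream. Its strongest region outside promoters, with a fold of 11.6, was in intron 4 (99140566 to 99141077 on chromosome 9). Beyond its 3′ end, 79658 bp and 88201 bp from the start, regions had 11.0 and 7.68.

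SMAD2 was the nearest coding start for all 20 of its regions, and its 17 regions outside promoters had a median fold of 6.03. The strongest of them, 14.0, lay 37523 bp upstream (47967902 to 47968478), followed by 10.5 at 77760 bp upstream and 10.1 in intron 1. SMAD4 had 3 regions above 14 outside promoters, at 12861 bp upstream (14.7), 37542 bp upstream (14.6) and 80285 bp downstream (15.5) of its canonical start. SMAD3 had 10 regions in its body, 7 of them in the 98.5 kb of intron 1. Of these 7, 5 lay between 72888 bp and 87345 bp from the start with folds of 2.59 to 3.36. Its strongest region outside the promoters as defined, 8.43, lay in intron 3 (67164623 to 67166273) at the annotated alternative start. From there 88.7 kb, in the gene and beyond it, held no region up to the shared promoter of AAGAB and IQCH. Upstream, the strongest were at 54192 bp (7.76) and 51697 bp (6.57).

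The highest fold outside promoters at the 10 loci was at SKIL. The region lay 47386 bp upstream (170310167 to 170310698 on chromosome 3) with a fold of 18.6, higher than 99.2% of the list, and the window printed above held no exact motif match. The next highest at this locus, 10.3, lay in an intron of CLDN11, followed by 8.09 at 118740 bp from the start, and the median of the 16 was 4.23. No strongest summit lay in the body of SKIL, a stretch of 39.5 kb, apart from the part of the promoter region that reaches into it. TGFB1, in a window with 12 coding starts, its own included, had a median of 4.60 over 15 regions outside promoters. Of these 15, 4 lay within 1000 bp of another coding gene's canonical start, though not of an outermost 5′ end, with folds of 6.80 to 11.5, and the median of the other 11 was 3.32. The strongest 3 of the 15 lay upstream, at 85690 bp by the canonical start of DMAC2 (11.5), at 95638 bp in PCAT19 (9.27) and at 73510 bp by the canonical start of B3GNT8 (8.56). Over all 10 loci, 5 of the 170 regions outside promoters lay at another coding gene's canonical start in this way. In the body of TGFB1, the 5 regions that lay outside promoters had folds of 2.71 to 3.99, all below the median of such regions in the list.

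**Figure D3:**
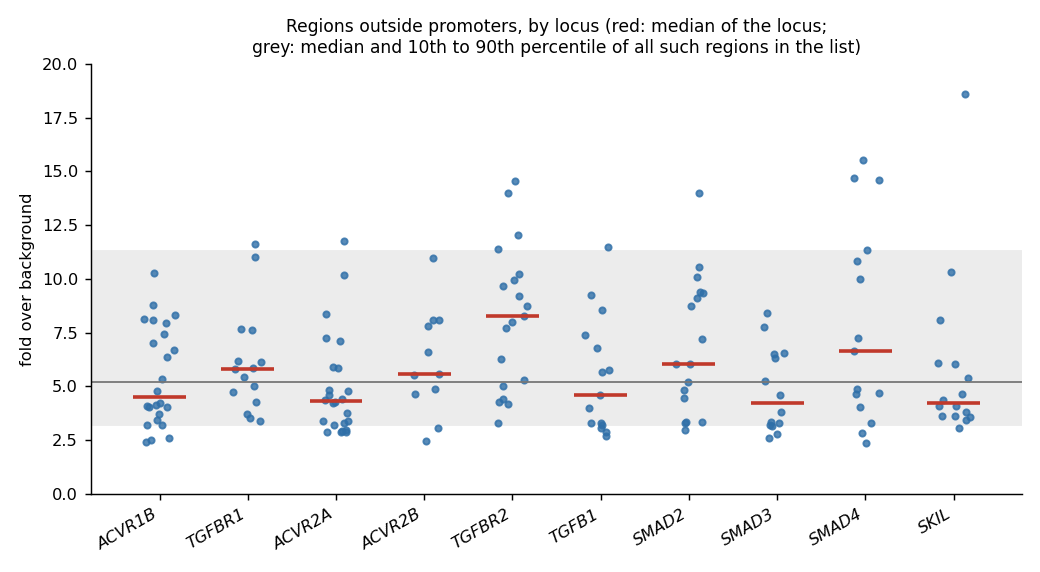
Fold over background (vertical axis) of the 170 regions outside promoters (blue points) at each locus with the median of the locus (red bar). The grey line and band give the median (5.20) and the 10th to 90th percentile (3.20 to 11.3) of the 139350 such regions in the whole list; TGFBR2 has the highest median, 8.27, and SKIL the highest single value, 18.6.

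By place, regions outside promoters had a median fold of 6.41 upstream of the genes (50 regions), 4.73 in them (44) and 4.79 downstream of them (76), and the ranges overlapped (2.42 to 18.6 upstream, 2.59 to 14.6 in the genes and 2.35 to 15.5 downstream). The 22 in intron 1 had a median of 4.05. At the 100 kb limit, the 8 regions at 90 to 100 kb from a gene body had a median of 6.05 (3.29 to 13.6) and the 13 regions at 100 to 110 kb, which were left out, 5.74 (3.41 to 13.1).

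Per length, the median over the members was 6.99 regions per 100 kb, against 6.42 over all protein-coding genes, and 7 of the 10 members lay above that value. ACVR1B, with 12.6, ranked at percentile 97.2 of all genes and ACVR2A, with 9.43, at 84.4. SMAD3, with 5.13, was lowest, at percentile 31.4. Counting only regions outside promoters, the median was 5.97 per 100 kb against 4.56, and 9 of the 10 members lay above the median gene, SMAD3 being the exception.

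**Figure D4:**
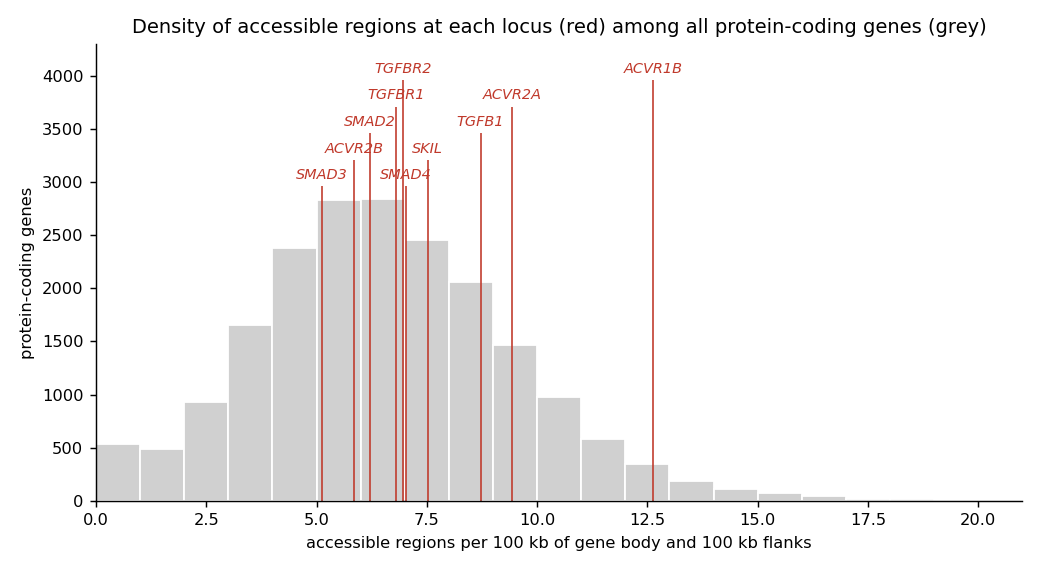
Number of protein-coding genes (vertical axis) by accessible regions per 100 kb of gene body and flanks (horizontal axis), in steps of 1, with the 10 members as red lines. Most members stand near the middle of the distribution, and ACVR1B stands at 12.6.

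Motifs were searched in both strands within 50 bp of the strongest summit, and a window was counted once however many matches it had. They were CAGAC (the SMAD core), GTCTAGAC (the SMAD palindrome), GGCGC (a GC-rich SMAD site), AATNNACA (FOXH1), ATGCAAAT (the octamer bound by OCT4), ACAATG (SOX), TGANTCA (AP-1), GGAATG (TEAD), CAGCAGG (ZIC), CCGGAAG (ETS), GGGCGG (GC box), ATTGG (NFY), TGACGTCA (CREB), CACGTG (E box), CTCF and NRF1. GGCGC can overlap the GC box and the NRF1 motif. A match describes the letters in the window and does not show binding.

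CAGAC, the motif of the pathway's own transducers, was in 38 of the 204 windows, or 18.6% (13.5% to 24.7%), against 20.0% of the list, a share inside the interval. Of the 15 regions at the members' own starts 4 held it, 1 each at SKIL, SMAD3, TGFB1 and TGFBR1. Counting other genes' promoters at the loci too, CAGAC was in 9 of 34 promoter windows, or 26.5% (12.9% to 44.4%). Of all promoter windows in the list 17.6% held it, a share inside that interval. GTCTAGAC was in 0 of 204 windows, which allows a share of up to 1.79%, against 0.0543% of the list. The FOXH1 motif was in 4 windows, or 1.96% (0.537% to 4.94%), against 5.13% of the list. All 4 lay outside promoters, where the share was 2.35% (0.645% to 5.91%), against 5.62% of such windows in the list, a share inside the interval. FOXH1 is a partner that brings SMAD complexes to DNA in early embryonic cells. A window with both CAGAC and the FOXH1 motif was found in 1 of 204, 21063 bp upstream of SMAD3, in a region of fold 6.31 that also held a TEAD match, against 0.934% of all windows in the list.

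The GC box, bound by SP and KLF factors, was in 21 of the 34 promoter windows at the 10 loci, or 61.8% (43.6% to 77.8%), against 38.4% of all promoter windows. Outside promoters it was in 10% (5.93% to 15.5%), against 6.06%, a share inside the interval. GGCGC was in 35.3% of the promoter windows (19.7% to 53.5%), against 41.3%, and outside promoters in 14.7% (9.75% to 20.9%), against 9.27%. The windows were also richer in G and C, with a median of 69.8% at the 34 promoter regions of the 10 loci, 19 of them at other genes' 5′ ends, against 65.3% at all promoters and 52.5% against 50.5% outside promoters, and the part of base composition in the motif shares was not tested. The octamer was in 3 windows, or 1.47% (0.304% to 4.24%), against 2.31%. It occurred at the weaker upstream promoter region of SMAD4, 64181 bp downstream of the TGFBR1 start and 87397 bp upstream of ACVR1B. The SOX motif was in 5.88% (3.08% to 10.0%) against 6.93%, and TEAD in 10.3% (6.49% to 15.3%) against 11.0%. AP-1 was in 3.43% (1.39% to 6.94%) against 4.50%, and NFY in 13.7% (9.32% to 19.2%) against 13.6%.

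CTCF, which anchors chromatin loops, had an exact match in 8 of 204 windows, or 3.92% (1.71% to 7.58%), against 2.13%. Of these, 3 lay at ACVR1B, 2 of them inside the gene. The other 5 were at TGFB1 (2), ACVR2B, SMAD4 and TGFBR2. None of the 16 motifs was in 36.3% of the windows (29.7% to 43.3%), against 33.4% of the list.

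**Figure D5:**
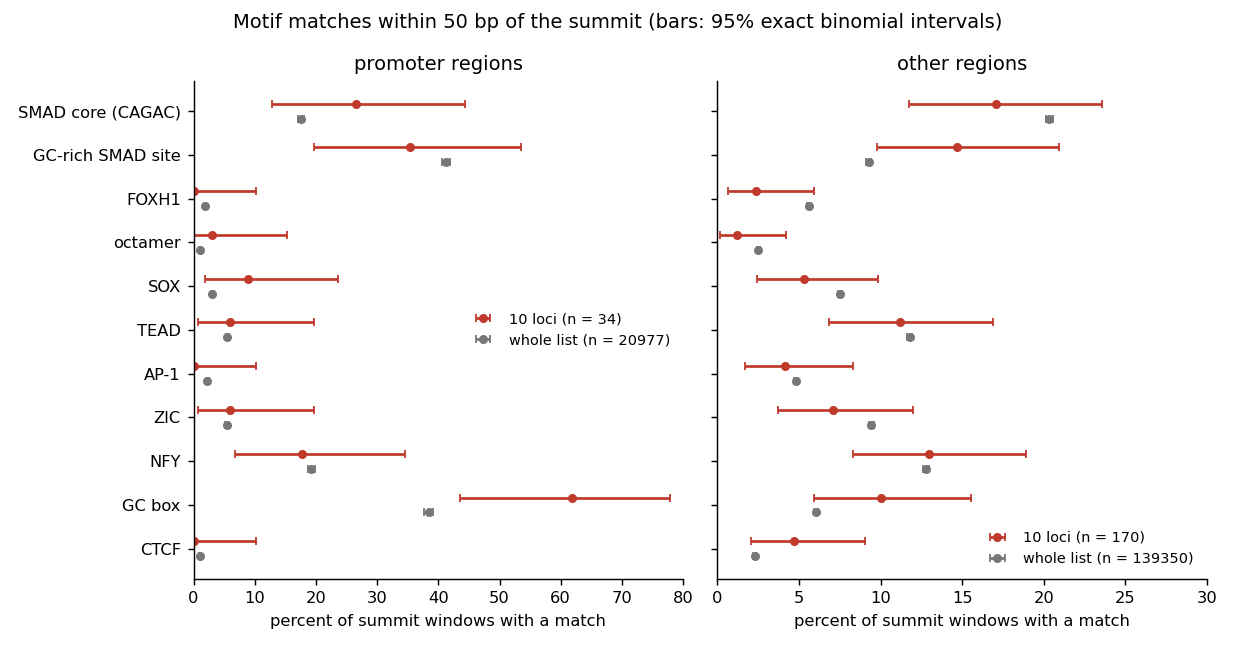
Percent of summit windows with a match (horizontal axis) for 11 of the motifs, at the 10 loci (red) and in the whole list (grey), with 95% exact binomial intervals, for promoter regions (left) and other regions (right). The GC box at promoters, 61.8% against 38.4%, is the widest gap; of the other motifs drawn, the interval leaves out the share of the list only for the GC-rich SMAD site outside promoters, 14.7% against 9.27%.

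The lists of other pathway genes held 48 genes, of which 31 (64.6%) had a region at the outermost 5′ end, against 71.5% of all protein-coding genes. At the canonical start 36 (75%) had one, close to the 75.7% of all protein-coding genes. Of 9 ligand genes 5 had a region at the outermost 5′ end and 5 at the canonical start. At the outermost 5′ end INHBA, an activin subunit, had 11.2 and TGFB2 had 6.98. INHBA had none at the canonical start. INHA had none at the outermost 5′ end but 7.27 at the canonical start, and INHBB, another activin subunit, had none at any start. Of 7 receptor and co-receptor genes 6 had a region at the outermost 5′ end and all 7 at the canonical start. ACVR1 had 12.2 and ACVR1C, a type I receptor for Nodal, had 10.6, while TGFBR3 had 9.01 at the canonical start only.

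Of 13 inhibitor genes 7 had a region at the outermost 5′ end and 10 at the canonical start. LEMD3, an inner nuclear membrane protein that binds SMADs, had 13.9 and SKI, a co-repressor related to SKIL, had 10.9, while FSTL3 had none at either start but 9.53 at another annotated one, and PMEPA1 had 7.19 at the canonical start. Of 10 SMAD partners 7 had a region at the outermost 5′ end and 9 at the canonical start, led by STRAP (13.8) and SMAD5 (11.8). SMAD9 had 8.10 at the canonical start only. EP300, a histone acetyltransferase, had none at any annotated start. Of 9 genes for matrix and latent ligand 6 had a region at the outermost 5′ end and 5 at the canonical start. ITGAV, an integrin subunit that activates latent TGF-beta, had 15.0 and LTBP2 had 7.88. FURIN and ITGB6 had none at either start.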

How the data were processed

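ATAC-seq of H1 cells was represented by 1 deposited peak list shared by 2 samples of 1 group. Per the submitters' processing notes the build was GRCh38. Aligner, peak caller and settings: not given in the sources used here. Read depth was not analysed here. The list, in narrowPeak layout, gives for each summit the authors' fold over background, a deposited −log10 p and −log10 q, a deposited score that was not used, and a deposited summit offset (a position, used as given). The fold and the −log10 p served only to describe, rank and filter within the list, and the −log10 q was not used. The list holds no value per library, so no library could be left out and nothing could be compared between replicates.

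Entries with the same coordinates were taken as 1 region with its highest-fold summit. GENCODE release 44 and hg38 served as reference; the 24 chromosomes with entries were all in it and no region ended past a chromosome's end. Promoter summits lay within 1000 bp of the outermost 5′ end of any gene. CpG ratios were taken within 500 bp of the start. Alignment to mitochondrial DNA used blastn 2.17.0 (E-value 1e-05). Scripts used Python 3.11.15, pandas 2.3.3, scipy 1.17.1 and pysam 0.24.0 and were tested on simulated data. The 10 members, the other lists and the motifs were chosen with earlier results of these data known. Regions were named by rule: the promoter region and the 3 strongest other regions of each member, of which 1 is not reported here. Of the 48 other pathway genes, each group's 2 highest promoter folds are named, with the alphabetically first 2 genes lacking a region at the outermost 5′ end. Other regions named in the text were chosen after their values were seen. Promoter window, start, flank, overlap, summit and −log10 p threshold were varied.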

Additional observations from a re-analysis of the deposited data

How the results depend on the processing

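Of 35 alternatives, 27 kept their value within its interval, or a count within 1.5 times. Keeping only regions with a −log10 p above the median of the list left 109 of the 204 regions, with a median fold of 8.09, 4.02 regions per 100 kb and 76.1% outside promoters. The flank set the number of regions: 135 with 50 kb and 53 in the gene bodies alone. Counting any annotated transcript start as a promoter left 73.5% of regions outside promoters. The CTCF share rose to 18.1% when 1 mismatch was allowed, an alternative chosen after seeing the data. The number of members with a promoter region fell to 7 with a window of 500 bp, where ACVR2B, SMAD3 and TGFBR1 dropped out, and to 9 with the −log10 p filter, where TGFB1 dropped out. Leaving out the region similar to mitochondrial DNA, also chosen after seeing the data, gave a median fold of 5.40. No paired analysis was possible because the list pools 1 group with no values per sample. The sizes of the differences cannot be set against a replicate error, and depth is unknown.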

Other observations

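Regions that match the CTCF consensus with up to 1 mismatch, a search chosen after seeing the strongest windows, made up 20.6% (interval 14.8% to 27.5%) of the 170 regions outside promoters at the 10 loci, against 10.6% of such regions in the list. They were unevenly spread over the loci: 9 of 24 at ACVR1B, 7 of 15 at TGFBR1 and 6 of 17 at SMAD2. The counts were 1 of 24 at ACVR2A, 1 of 16 at SKIL and 0 of 14 at SMAD3. None of those at TGFBR1 and SMAD2 was an exact match. The strongest region upstream of SKIL and the strongest intronic region of TGFBR1 matched with up to 1 mismatch. The other 8 of the 10 strongest regions outside promoters did not. With a fold of 11.9 or more, 1 of 8 regions outside promoters at the loci matched (12.5%, interval 0.316% to 52.7%). In the list, 16.1% of the 11645 regions outside promoters with such a fold matched, a share inside that interval.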
